A study of Mus musculus with 10 samples.

Results

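The cardiac myosin heavy chains Myh6, Myh7 and Myh7b were examined in the left ventricle of the mouse, by the ratio of their RNA in the lateral wall to that in the septal wall. The 3 genes were taken by their symbols in the array's annotation, and the group was chosen from the wall ratios of all 10 arrays, so the ratios of these genes are given as a description with no test. Of the 3 genes, 2 had a feature among the 16504 named genes on the array, with 1 feature each for Myh6 and Myh7 and 0 for Myh7b. Myh7b was therefore not analysed here.

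RNA of both walls was labelled with Cy3 and Cy5 and hybridised together on 1 array, and each pair was run again on a second array with the dyes exchanged. The samples were 4 dyssynchronous hearts from separate mice, numbered 1, 3, 4 and 5, and a control made by pooling RNA of synchronous mice. In dyssynchrony the walls no longer contract together, and the study ties it to implantation of a pacemaker. The sources used here do not give strain, age, sex, time of pacing or how many mice were pooled. In all, 10 RNA samples gave 10 arrays, 8 from hearts and 2 from the pool. The files hold ratios only, so neither the level of an RNA in a wall nor the labelled tissue could be checked by level, and dim or saturated features could not be marked. Both arrays of a heart hold the same RNA, so precision is limited by the 4 hearts, and the pool has no replicate.

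A myosin heavy chain carries the motor domain and the tail from which the thick filament of the sarcomere is built. Myh6 encodes the fast alpha chain, which predominates in the adult mouse ventricle, and Myh7 the slow beta chain, which predominates in the ventricle before birth and in slow skeletal muscle and returns under pressure overload or low thyroid hormone. Myh6 and Myh7 lie next to each other on 1 chromosome, and each of the 3 genes hosts a microRNA in an intron: Mir208a in Myh6, Mir208b in Myh7 and Mir499 in Myh7b.

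These microRNAs were not measured here. Their mature sequences are shown because they tie the 3 genes together and include Myh7b, for which there are no values. All 3 matched RefSeq entries on GRCm38.p6, and each lies within the annotated span of its host. They are written from the 5′ end with the seed, bases 2 to 8, in capitals. The first is at chr14:54949072-54949093 on the minus strand, the second at chr14:54975710-54975731 on the minus strand and the third at chr2:155622893-155622913 on the plus strand.
mmu-miR-208a-3p: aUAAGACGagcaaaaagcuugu
mmu-miR-208b-3p: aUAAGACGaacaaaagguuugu
mmu-miR-499-5p: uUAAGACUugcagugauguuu
The microRNAs of Myh6 and Myh7 had the same seed and differed at 3 of 22 bases. The seed of the microRNA of Myh7b differed from theirs at 1 base.

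The 250 bases before the annotated start of Myh6 and Myh7 are shown because the genes are neighbours and yet had unequal wall ratios. Capitals mark the M-CAT motif, CATTCC on either strand, through which TEAD factors act on muscle genes. Both sequences are from RefSeq on GRCm38.p6 and from the minus strand, Myh6 at chr14:54966608-54966857 and Myh7 at chr14:54994627-54994876, the first of 2 starts listed for Myh7.
Myh6: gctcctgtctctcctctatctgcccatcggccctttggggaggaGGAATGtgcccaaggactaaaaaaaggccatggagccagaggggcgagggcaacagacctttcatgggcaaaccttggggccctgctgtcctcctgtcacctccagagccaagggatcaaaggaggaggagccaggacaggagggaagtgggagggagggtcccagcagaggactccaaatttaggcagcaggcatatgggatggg
Myh7: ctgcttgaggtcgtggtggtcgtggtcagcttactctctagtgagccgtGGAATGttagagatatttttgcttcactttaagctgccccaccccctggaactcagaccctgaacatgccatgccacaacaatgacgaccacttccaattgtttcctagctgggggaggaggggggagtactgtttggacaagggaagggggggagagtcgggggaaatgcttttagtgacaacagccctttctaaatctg
Each sequence held the motif once, read on the opposite strand, beginning at -206 from the start in Myh6 and at -201 in Myh7. Of 32851 windows of this length in the RefSeq promoter table, 12.6% held it. A match describes the letters and does not show a bound site.

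Values below are log2 ratios of the lateral over the septal wall, so a negative value means more RNA in the septum. They rest on reading the deposited values as Cy5 over Cy3, the usual ratio of the named software. The labels do not state this direction. Read as Cy3 over Cy5, every ratio would keep its size and change its sign, so septal and lateral would change places. A check on the largest ratios did not settle the direction. Of the 50 genes with the largest ratios on both arrays of a sample, only 6, 1, 6 and 10 had one direction on both arrays of hearts 1, 3, 4 and 5, and 5 in the pool. Myl7, an atrial myosin light chain, was septal on all 10 arrays under this reading. Its ratio was -5.3, -3.5, -3.8 and -6.1 in hearts 1, 3, 4 and 5 with lateral RNA in Cy5, and -0.017 in the pool. In Cy3 it was -5.0, -3.3, -3.3 and -6.1 in these hearts, and -0.225 in the pool. What this gene says of the direction was not tested. Were the values instead already turned to 1 wall over the other, the mean of Myh7 would be -0.10. Myl7 and Myh7 would then each have opposite signs on the 2 arrays of every sample, which hold the same RNA. Under the reading used here, Myh7 was higher in the septal wall of every heart and of the pool. With lateral RNA in Cy5 its ratio was -0.89, -1.24, -1.31 and -2.76 in hearts 1, 3, 4 and 5, and -0.90 in the pool. With lateral RNA in Cy3 it was -0.72, -0.96, -1.05 and -2.71 in the same hearts, and -0.73 in the pool. Heart 5 lay apart from the others on both arrays, heart 1 had the smallest septal excess of the hearts, and the pool lay beside heart 1. Averaged over the dyes, the ratio was -0.81, -1.10, -1.18 and -2.74 in hearts 1, 3, 4 and 5 and -0.82 in the pool. As folds, Myh7 RNA was 1.75, 2.14, 2.26 and 6.66 times as high in the septum as in the lateral wall of these hearts, and 1.76 times as high in the pool. In a tissue sample fewer cells of a type and less RNA per cell cannot be told apart.

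**Figure D1:**
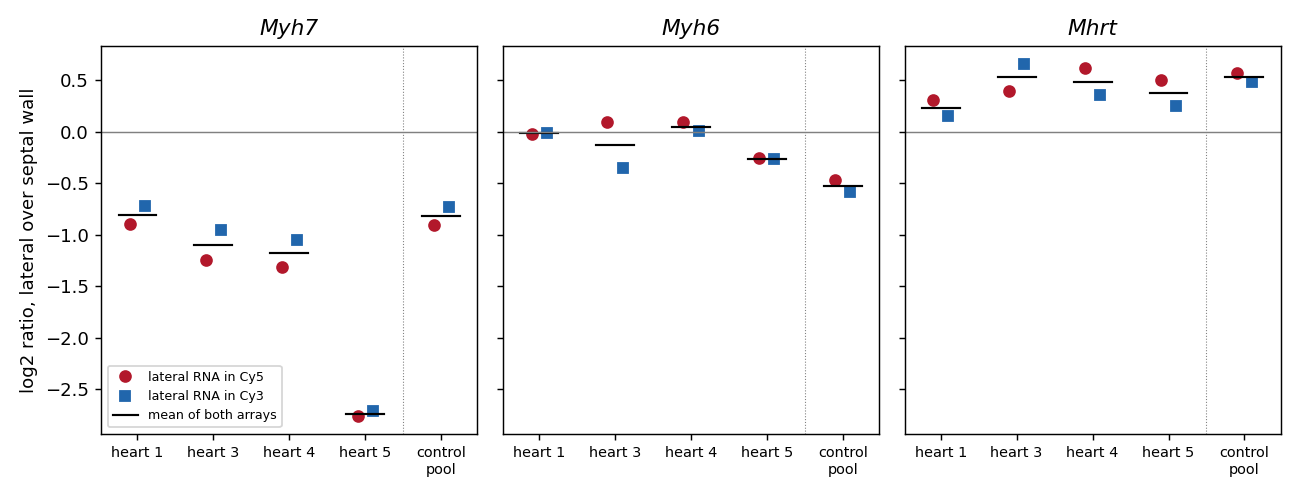
Log2 ratio of lateral over septal wall (y axis) on each array for Myh7, Myh6 and Mhrt, with hearts 1, 3, 4 and 5 and the control pool along the x axis. Circles are arrays with lateral RNA in Cy5, squares those with lateral RNA in Cy3, and bars the mean of both. Myh7 is below 0 on all 10 arrays and lowest in heart 5, Myh6 is nearest 0 in hearts 1 and 4, and Mhrt is above 0 on all 10 arrays.

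Over the hearts Myh7 averaged -1.46 ± 0.87 (SD, n = 4), or 2.74-fold in favour of the septum, and it lay 0.64 below the pool, a gap smaller than the SD of the hearts. Without heart 5 the mean was -1.03 ± 0.20 (SD, n = 3), or 2.04-fold, and the gap to the pool was -0.21. The gap to the pool thus rested on heart 5, while the septal excess itself was present with and without it and in the synchronous animals too. For rank, 0.036% of genes had a lower mean ratio, against 26.9% were the values already turned, and in single samples 1.12%, 1.55%, 0.71% and 0.04% of genes were lower than Myh7 in hearts 1, 3, 4 and 5 and 1.19% in the pool.

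The ratios of Myh7 changed little between dye orientations. The dye part, taken as the difference of the 2 arrays of a sample divided by 2, was at most 0.14 on the log2 scale for Myh7, against a median over all genes of 0.55, and 87.3% of genes had a larger one. Across all genes, with both arrays of a sample expressed as lateral over septal, their correlation was -0.35 to -0.17, and were the values already turned it would have the opposite sign. Among all genes 64 were higher septally on all 10 arrays, or 0.388%, and Myh7 was one of them. Beyond 1.5-fold in one direction on all 10 arrays there were 2 genes, or 0.0121%, namely Myh7 and the Iroquois transcription factor Irx2. In the means of the hearts, Myh7 was among the 0.0848% of genes beyond 1.5-fold on the septal side in all 4. Since the same ratios chose Myh7, nothing is read from these shares.

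Myh6 had ratios near 0 in the hearts. With lateral RNA in Cy5 the values for hearts 1, 3, 4 and 5 were -0.02, 0.09, 0.09 and -0.26, and the pool had -0.47. With lateral RNA in Cy3 the same hearts had -0.01, -0.35, 0.0059 and -0.27, and the pool -0.58. Heart 3 had opposite signs on its arrays, while hearts 1, 4 and 5 and the pool kept 1 sign each. The mean over both dyes was -0.01, -0.13, 0.05 and -0.26, or -0.09 ± 0.14 over the hearts (SD, n = 4), with 3 of 4 hearts below 0, and -0.53 in the pool. The pool lay below all 4 hearts, by 0.44 from their mean, and 4.36% of genes were lower than Myh6 in the pool, against 14.2% to 59.1% in the hearts. The alpha chain thus showed its largest wall ratio in synchronous animals, with 1.44 times as much RNA in the septum.

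**Figure D2:**
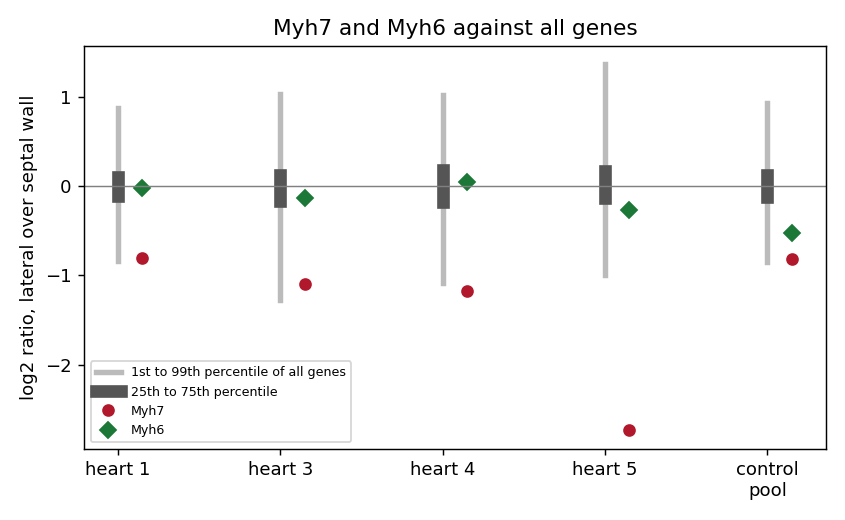
Log2 ratio of lateral over septal wall (y axis) in hearts 1, 3, 4 and 5 and the control pool (x axis), averaged over both dyes. Thin bars span the 1st to the 99th percentile of 16504 genes and thick bars the 25th to the 75th. Circles show Myh7 and diamonds Myh6. Myh7 at -2.74 in heart 5 lies far below the 1st percentile of -0.99, and at -0.81 in heart 1 just above it.

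The difference between both ratios shows how unevenly the beta and alpha chains were spread over the walls. Myh7 minus Myh6 was -0.79, -0.97, -1.23 and -2.48 in hearts 1, 3, 4 and 5, and -0.29 in the pool. All 4 hearts lay below the pool, and heart 5 lay farthest from it. The mean of the hearts was -1.37 ± 0.76 (SD, n = 4), or a beta to alpha ratio 2.58 times as high in the septum as laterally, against 1.22 times in the pool. The hearts lay -1.08 from the pool, and -0.71 without heart 5. On single arrays the difference was -2.51 to -0.61 in the hearts, and -0.43 and -0.15 in the pool. Both arrays of a sample hold the same RNA, and the pool is 1 sample. How many other gene pairs set the hearts apart from the pool in this way was not counted. Myh6 was less septal than in the pool in all 4 hearts, and Myh7 more septal in hearts 3, 4 and 5 but not in heart 1. Myh6 and Myh7 are close in sequence, and how far each feature also reads the other's RNA was not tested.

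The pair is flanked and overlapped by other genes, and 2 of these are long noncoding RNAs on the strand opposite to Myh7. Mhrt, or Myheart, is a cardiac noncoding RNA transcribed from between the genes into the antisense of Myh7. With lateral RNA in Cy5 the Mhrt ratio was 0.31, 0.40, 0.62 and 0.50 in hearts 1, 3, 4 and 5, and 0.57 in the pool, and with lateral RNA in Cy3 it was 0.16, 0.66, 0.36 and 0.25 in these hearts and 0.48 in the pool. Mhrt was higher laterally on all 10 arrays, as were 0.412% of all genes, so it ran opposite to Myh7 in every sample. Its mean was 0.41 ± 0.13 in the hearts (SD, n = 4), or 1.33-fold in favour of the lateral wall, and 0.53 in the pool. In limma over all genes Mhrt did not pass (adjusted p 0.797, lateral in 4 of 4 hearts). Heart 5, lowest for Myh7, was not an extreme for Mhrt.

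Gm31251, an unnamed long noncoding RNA that also overlaps Myh7, had 0.35, 0.65, 0.18 and 0.05 in hearts 1, 3, 4 and 5 (0.31 ± 0.26, SD, n = 4), against 0.53 for the pool. It was above 0 on 9 of 10 arrays and did not pass either (adjusted p 0.797). The strand that each of these features reads was taken from the annotation, and was not tested. Beyond them, Cmtm5, a MARVEL domain gene next to Myh6, averaged -0.24 ± 0.07 (pool -0.16), and Ngdn, a ribosome assembly and translation gene, -0.06 ± 0.02 (pool -0.03). Il25 averaged -0.21 ± 0.48, Efs -0.02 ± 0.10 and Zfhx2os -0.02 ± 0.10 (SD, n = 4 each). None of the 5 outer genes had a mean ratio near that of Myh7. Around Myh7b the measured neighbours were Gss, Acss2, Ggt7, Trpc4ap, Edem2 and Procr, with mean ratios from -0.13 for Gss to 0.38 for Edem2.

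**Figure D3:**
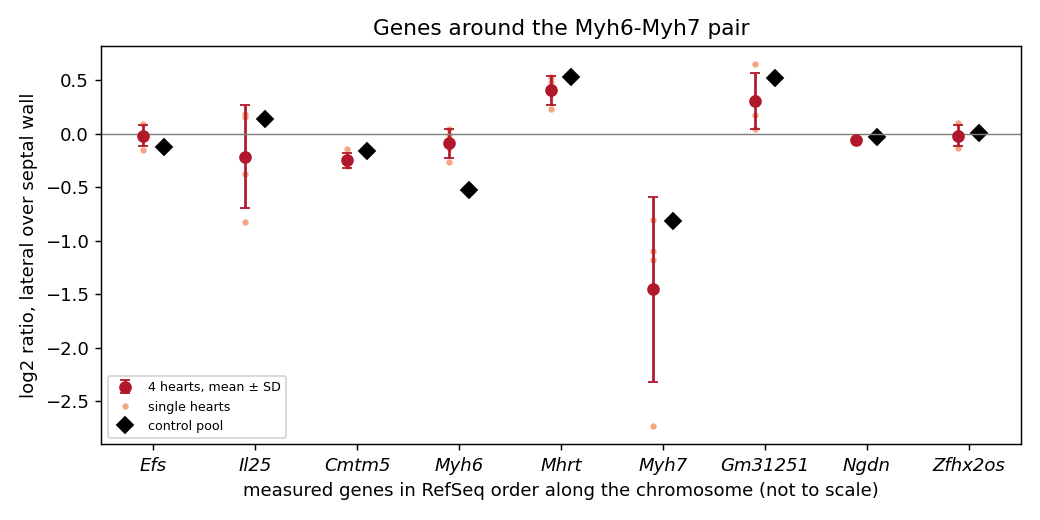
Log2 ratio of lateral over septal wall (y axis) for the measured genes around Myh6 and Myh7 in RefSeq order (x axis, not to scale). Large circles with bars are means ± SD of 4 hearts, small dots single hearts and diamonds the control pool. Myh7 lies at -1.46, Mhrt and Gm31251 on its opposite strand at 0.41 and 0.31, and the outer genes between -0.24 and -0.02.

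The genes whose ratios were most like those of Myh7 were sought by cosine similarity over the 10 arrays, which share 5 pairs of RNA samples. Candidates were the 2242 genes with no exact zero and a root mean square ratio of at least 0.5 times that of Myh7. The closest were Myl4, the atrial essential light chain (0.94), Mybpc2, the fast myosin-binding protein C (0.92), and Myl7, the atrial regulatory light chain (0.91). Dkk3, a Dickkopf family protein (0.90), Ecrg4, a secreted peptide precursor (0.88), and Ucma, a cartilage matrix protein (0.87), came next. For Myh6 the closest of 10389 candidates were B3galt2 (0.94), Wapl (0.94), Fyco1 (0.90) and Atp5b (0.90). Myh6 against Myh7 had a similarity of 0.55, and Mhrt against Myh7 one of -0.81.

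**Figure D4:**
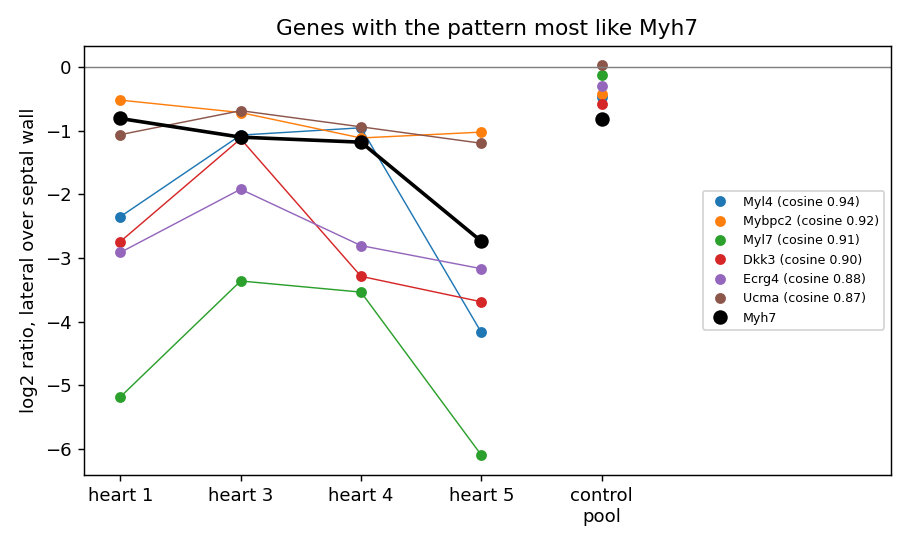
Log2 ratio of lateral over septal wall (y axis) in hearts 1, 3, 4 and 5 and the control pool (x axis) for Myh7 (black) and the 6 genes most like it by cosine similarity over 10 arrays. Lines only join the points of a gene. Heart 5 is lowest for every gene shown but Mybpc2, whereas in the pool Myh7 at -0.82 lies below all 6.

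Within this set the hearts did not keep the order of Myh7. Myl4 had -2.35, -1.07, -0.95 and -4.17 in hearts 1, 3, 4 and 5, against -0.47 for the pool. Heart 1, with the smallest septal excess of the hearts for Myh7, had the second lowest ratio for Myl4 and for Myl7 (-5.18). The pool, with -0.82 for Myh7, had only -0.12 for Myl7. Myh7 was thus as septal in the synchronous pool as in heart 1, while Myl7 and Myl4 were not.

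No gene of any list passed limma over all 16504 genes in the wall comparison, where 0% of genes were called (0 at adjusted p under 0.05, 934 at an unadjusted p under 0.05). When limma was run on the arrays singly, hearts being a random block beside a dye term, it called 20 genes, or 0.121%. Genes named here that passed that fit were Myl7, Mybpc2, Dkk3, Ecrg4, Ucma, Irx2, Ankrd1 and Cnn1, with adjusted p between 0.00612 and 0.0356, while Mhrt had 0.0855. Those that passed had been named from these same wall ratios, by smallest p, likeness to Myh7 or size on all arrays. Nothing is therefore read from their passing. In the difference of the hearts from the pool, which takes the pool to vary like 1 heart, limma also called 0% (783 unadjusted), and the fit with a dye term called 3. As background, 7.8% of all genes were higher laterally and 7.63% higher septally in all 4 hearts, and the median of all genes was 0.0026.

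The other myosin heavy chains had no shared direction. Of 10 measured, 1 was higher laterally and 1 higher septally in all 4 hearts, and the median was -0.05. Myh11, the smooth muscle chain, averaged 0.28 ± 0.20 (pool 0.32, adjusted p 0.797, lateral in 4 of 4). Myh10, a nonmuscle chain, averaged -0.31 ± 0.26 (pool 0.02), and Myh9, another, 0.08 ± 0.21 (pool -0.16). The average of Myh10 hides opposite signs on the 2 arrays of hearts 3, 4 and 5 and of the pool. Its largest dye part was 1.07, against a median of 0.55 over all genes. Myh3, the embryonic chain, averaged -0.12 ± 0.11 (pool -0.17), Myh8, the perinatal chain, -0.05 ± 0.15, Myh13, the extraocular chain, -0.05 ± 0.21, and Myh14 -0.01 ± 0.15. Of these, Myh8 had an exact zero in at least 1 of its 2 features on 8 of 10 arrays. The adult fast skeletal chains were lowest in heart 5, as Myh7 was. Myh4 stood at 0.78, -0.57, 0 and -2.96 in hearts 1, 3, 4 and 5, with exact zeros on 5 of 10 arrays. Myh1 stood at 0.75, 0.03, 0.19 and -0.87, and Myh2 at 0.53, -0.19, -0.36 and -0.66. The skeletal chains are near-identical to each other, so their features may share signal.

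Among the 11 measured myosin light chains, 0 were higher laterally and 3 septally in all 4 hearts, with a median of -0.05. These 3 were Myl7 (-4.54 ± 1.32), Myl4 (-2.14 ± 1.496) and Myl2, the ventricular regulatory chain (-0.14 ± 0.07, pool -0.19). Myl7 had an adjusted p of 0.732. Of 17 measured thick filament partners, 1 was higher laterally and 6 septally in all 4 hearts, with a median of -0.08. Mybpc2 stood at -0.84 ± 0.28 (pool -0.42), cardiac Mybpc3, which links myosin to the thin filament, at -0.16 ± 0.04 (pool -0.16), and the M-band gene Myom1 at -0.15 ± 0.04 (pool -0.08). Mybpc3 and Myom1 thus had smaller septal ratios than Myh7 in every heart.

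Regulators of the alpha and beta chains included thyroid hormone receptors, TEAD, MEF2, GATA and NFAT factors. Of 41 measured, 3 were higher laterally and 5 septally in all 4 hearts, with a median of -0.02. Dio2, the deiodinase that activates thyroxine, was -0.84, -0.72, -0.66 and -0.74 in hearts 1, 3, 4 and 5, and -0.16 in the pool. These averages over both dyes hide opposite signs. With lateral RNA in Cy5 and in Cy3, heart 4 had -1.531 and 0.213, and the pool -0.595 and 0.284. Dio2 was septal on 8 arrays and lateral on 2. Its largest dye part was 0.872, against a median of 0.551 over all genes. In limma on single arrays with a dye term, Dio2 did not pass (adjusted p 0.0743). Its mean was -0.74 ± 0.07 (SD, n = 4), with an adjusted p of 0.643, which equals the lowest of any gene, and an adjusted p of 0.850 for the difference from the pool. Hand2 averaged 0.16 ± 0.11 (pool -0.50) and Nfatc1 0.21 ± 0.17 (pool -0.17). Thyroid receptor Thra averaged 0.03 ± 0.07 and Thrb 0.08 ± 0.48. Of the M-CAT binding factors, Tead1, Tead2 and Tead3 averaged 0.01 ± 0.17, 0.0020 ± 0.29 and 0.0011 ± 0.35, and Tead4 0.52 ± 0.73 (SD, n = 4 each). The receptors and the TEAD genes are outside the naming rule and were chosen after their values were seen.

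The list for the fetal and hypertrophy program, which commonly accompanies a return of Myh7, had 2 of 18 measured genes higher laterally and 7 higher septally in all 4 hearts, with a median of -0.16 (pool -0.08). The 2 lateral genes were Pln (0.02) and Slc2a4 (0.08), named after their values were seen. Genes that rise and genes that fall in this program were not separated, so these counts and the median give no direction for it. Ankrd1, a stretch-responsive titin-binding protein, averaged -0.67 ± 0.24 (pool -0.51), and Cacna1g, a T-type calcium channel, -0.63 ± 0.28 (pool -0.28). Acta1, the skeletal alpha actin of this program, averaged -0.08 ± 0.18, and was named after its values were seen. Slow muscle genes, the usual partners of Myh7 in slow fibres, had 0 of 11 higher laterally and 3 septally in all 4 hearts, with a median of -0.07. Tnni1, the slow troponin I, was lowest of the genes named from it, at -0.51 ± 0.25 (pool -0.0035). With lateral RNA in Cy5 and in Cy3, Tnni1 had -0.028 and -1.422 in heart 3, and -0.166 and 0.159 in the pool. The pool value near 0 thus averages opposite signs. Tnnt1, the slow troponin T, averaged -0.11 ± 0.13.

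Markers of fast skeletal muscle had septal ratios in heart 5, and some atrial markers had them in the other hearts too. The lists share Myl7, Myl4, Mybpc2 and other genes. Of 14 fast skeletal muscle genes, 10 were beyond 1.5-fold septal in heart 5, with a median of -0.95, against 2, 1 and 2 genes in hearts 1, 3 and 4 and 2 in the pool. Medians in those samples were 0.02, 0.02, -0.0024 and 0.04. Over all genes 2.96%, 6.79%, 6.45% and 4.21% were beyond 1.5-fold septal in hearts 1, 3, 4 and 5, and 3.35% in the pool. Of 12 atrial genes, 5, 3, 3 and 5 were beyond 1.5-fold septal in hearts 1, 3, 4 and 5 and 1 in the pool, with medians of -0.20, -0.30, -0.11 and -0.53, and -0.0089 in the pool. Atrial Nppa stood at -1.35, 0.20, -0.08 and -2.27 (pool 0.02) and Mybphl at -2.14, 0.22, -0.42 and -3.10 (pool 0.18). Some others of the list were even or lateral, with Nr2f2 at 0.23 ± 0.08 and lateral in all 4 hearts, Gja5 at 0.15 ± 0.22 and Sln at -0.04 ± 0.53 (SD, n = 4 each). Sln had exact zeros on 5 of 10 arrays, among them both arrays of the pool, so its mean near 0 says little. These 5 atrial genes were named after their values were seen. Hearts 1 and 5 thus had the lowest ratios for Nppa, Mybphl, Myl4 and Myl7, while the septal excess of Myh7 was smallest in heart 1 and largest in heart 5. The part of atrial or skeletal muscle RNA in the ratio of Myh7 was not tested.

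Of 14 conduction system genes, 0 were higher laterally and 6 septally in all 4 hearts, with a median of -0.19 (pool -0.02). The smallest p in this list belonged to Pcp4, Cacna1g and Kcne1, with Kcne1 at -0.55 ± 0.27 (pool -0.56) and Pcp4 at -0.39 ± 0.13 (pool -0.84). Ventricular markers were nearly even, with a median of 0.0085 in the hearts and -0.14 in the pool, and 0 of 12 beyond 1.5-fold septal in any sample. Smooth muscle genes were higher laterally in all 4 hearts for 6 of 10 genes, with a median of 0.17 (pool 0.03), and the smallest p belonged to Cnn1 at 0.85 ± 0.26, Lmod1 at 1.00 ± 0.43 and Tagln at 0.25 ± 0.16. Fibroblast genes had a median of -0.09, with 1 of 11 higher laterally and 2 septally in all 4 hearts. Their part in the ratio of Myh7 was not tested either.

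**Figure D5:**
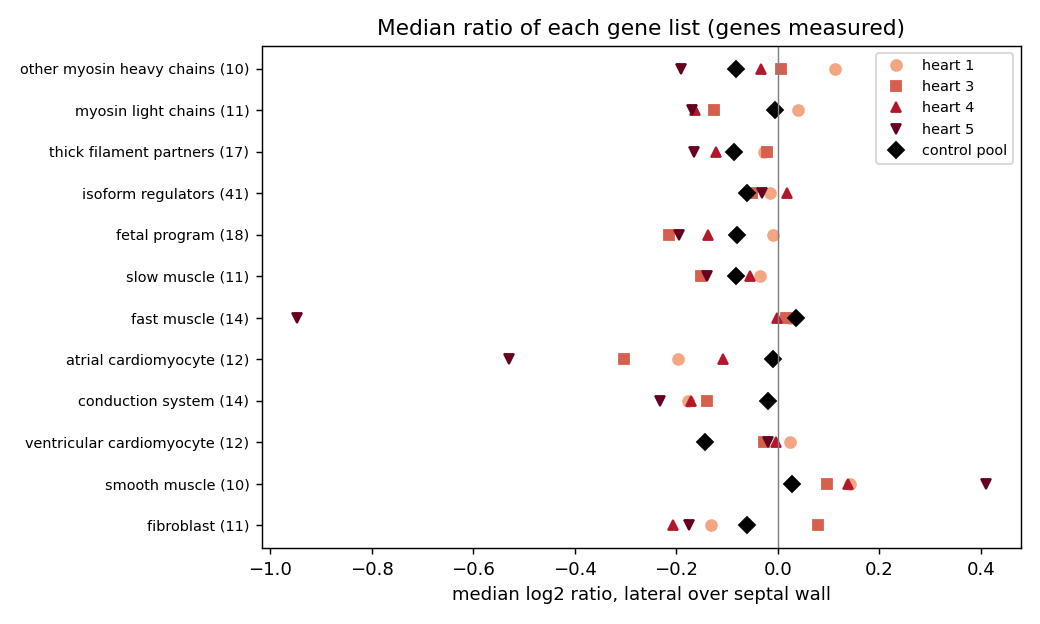
Median log2 ratio of lateral over septal wall (x axis) for each gene list (y axis, number of genes measured in brackets), with 1 symbol for each of hearts 1, 3, 4 and 5 and a diamond for the control pool. The fast muscle list lies at -0.95 in heart 5 and between -0.0024 and 0.04 elsewhere, and the atrial list reaches -0.53 in heart 5.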

How the data were processed

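Two-colour arrays of lateral and septal wall RNA were analysed from the values the submitters deposited. Agilent Feature Extraction 7.5 is the software named, per the submitters' processing notes. What the authors deposited was treated as log10 ratios of Cy5 over Cy3, which the labels do not state. Base and direction follow the usual output of that software and are likely, not known. A check of direction on the 50 genes with the largest ratios was added after seeing the data and did not settle it, and the dye normalization is not given in the sources used here. Values were multiplied by 3.32 to log2 and signed as lateral over septal. A value of -2 was taken as missing and occurred 0 times in named features. Exact zeros made up 7.69% to 15.1% of features, and their meaning is not stated.

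Of 22393 features, 18218 had 1 gene symbol, 16 several and 4159 none. Entrez numbers of 18175 matched RefSeq, and 0 symbols differed. Averages were taken over a gene's features, then over the 2 arrays of a sample. The 4 hearts and the pool were fitted in limma 3.58.1 (R 4.3.3, statmod 1.5.0) over 16504 genes, two-sided, with Benjamini-Hochberg adjustment and a limit of 0.05. The fit was also run on simulated ratios with added wall differences and no dye effect. That run checks the calculation alone and lends no support to the results here. The genes, the lists and the tests were chosen with earlier results of these data known. The naming rule took the cardiac chains, all other myosin heavy chains on the list, from each list the 3 of smallest p, 3 measured neighbours on each side, and the 6 and 4 genes most like Myh7 and Myh6. Alternatives covered centring, spread, dye orientation, direction, log base, zeros, the replicate unit, moderation, features and each heart left out. For direction only values already turned were run, as Cy3 over Cy5 would change every sign and no size.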

Additional observations from a re-analysis of the deposited data

Results flagged for a closer look

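A single heart far from the other 3 was sought for 70 genes, differences and list medians. It was found for 4, where chance gives about 1 in 20 sets, or 3.5. The median of the fast skeletal muscle genes reached -0.95 in heart 5, with -0.0024 to 0.02 elsewhere, and heart 5 was also the lowest for Myh7. For Myh7 the gap from heart 5 to the next heart was 0.81 of the range and did not meet the same limit. The median of the smooth muscle genes was 0.41 in heart 5 and 0.10 to 0.14 in the others. Next to Myh7b, Ggt7 was -0.57 in heart 4 against 0.06 to 0.14 elsewhere, and Gss was -0.30 in heart 4 against -0.09 to -0.05. For Gss this rested on 1 array of heart 4, at -0.581 with lateral RNA in Cy3. With lateral RNA in Cy5 heart 4 had -0.015, within the -0.087 to -0.01 of the other hearts.

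For 3 of the genes named by rule the dye averages of all hearts had one sign and both arrays of the pool the other. So had 356 of all genes, or 2.16%. The named genes were searched within the 70 sets above, which also hold list medians and a difference. No share is therefore given for the 3, and they are not set against the 2.16%. Single arrays of the hearts did not have to share a sign. Hand2 had opposite signs on the arrays of every heart, and Nfatc1 on those of hearts 1, 3 and 5, while Gss kept 1 sign. The difference in sign itself was not tested. Hand2 averaged 0.16 in the hearts and -0.50 in the pool, Nfatc1 0.21 and -0.17, and Gss -0.13 and 0.07. In limma the difference from the pool had an adjusted p of 0.850 for Hand2 and of 1 for Nfatc1 and Gss.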

How the results depend on the processing

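If the deposited values had already been turned to 1 wall over the other, Myh7 would be at -0.10, Myh6 at 0.067 and their difference at -0.16, with gaps to the pool of -0.01 for Myh7, 0.009 for Myh6 and -0.019 for the difference, and 123 genes would be beyond 1.5-fold in all 4 hearts. The Myh7 mean would then average opposite signs on the 2 arrays of each heart. Read as log2, the values would give -0.44 for Myh7, -0.41 for the difference and 0.13 for the gap of Myh6 to the pool, and as natural logs -0.63 for Myh7, -0.59 for the difference and 0.19 for that gap. Fitting the arrays singly, with hearts as a random block, called 23 genes between the walls without a dye term and 20 with one, and 3 against the pool in both. The count beyond 1.5-fold in all hearts was 18, with 71 at a lower limit and 4 at 2-fold, and 31 to 41 with a heart left out. Leaving out a heart gave -1.67 to -1.03 for Myh7, -0.14 to -0.03 for Myh6 and -1.56 to -0.998 for their difference. The gap of Myh7 to the pool was -0.85 to -0.21, and smallest without heart 5. In 89 settings these results and counts moved by less than the spread between hearts or by less than 1.5 times, and in 21 by more. The 89 include centring and the removal of zeros, which could not move Myh6 or Myh7, as array medians were 0 and neither gene had zeros. They also include the gap of Myh7 to the pool at -0.01, since the spread between hearts (0.87) exceeds its main value of -0.64. The tally is therefore no measure of robustness. Medians of lists moved by more than that spread in 10 settings and by less in 62, and among those 10 turned sign for fibroblast genes with lateral RNA in Cy5 alone (0.10), ventricular genes in Cy3 alone (-0.03) and isoform regulators without heart 3 (0.01). Myh7b had no feature, and with 1 feature per gene the probe alternatives could not be run for Myh6 and Myh7.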
